A study of Homo sapiens with 12 samples.

Results

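Keratins are the filament proteins of epithelial cells, and the set that a cell expresses is widely used to tell one epithelium from another. Each keratin filament is an obligate pair of a type I (acidic) and a type II (basic) chain, so that neither type builds a filament alone. Simple epithelia are known for KRT8 and KRT18, with KRT7 and KRT19 in many ducts and airways, and the basal cells of stratified epithelia and of the airway are known for KRT5 paired with KRT14. The keratin genes were taken as all rows of the deposited count table whose symbol is KRT followed by a number and at most 1 letter from A to C, and whose description does not call them a pseudogene. This gave 55 keratin genes of the 50868 genes in the table, 29 of type I and 26 of type II.

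The libraries came from RPMI2650, an epithelial line derived from a tumour of the human nasal septum, labelled wild type in every group and grown at an air-liquid interface, where the cells are fed from below and face air above. Of the 3 groups of 4 libraries, the first was exposed to perfluorohexanoic acid (PFHxA) and the second to perfluorobutanoic acid (PFBA), each at 1 µM over 7 days, and the third was the control, for which neither a day nor a vehicle is recorded. Both acids are perfluorinated carboxylic acids, and PFHxA has the longer carbon chain. Whether libraries of 1 group are separate cultures is not in the labels, so that p-values measure the spread between these libraries, which may be technical. All of them come from 1 line, and no primary nasal cells were included.

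Total counts ran from 16941599 to 21879105 per library, and keratins took 0.419% to 0.483% of them. Of the epithelial marker genes outside the keratin family, 8 of 12 had at least 1 CPM. CPM is counts per 1000000 counts, after TMM scaling of library sizes. None was at 0 in every library, but RAB25 had 0 CPM with PFHxA and PFBA and a mean of 0.0117 CPM in control. CLDN3 averaged 0.0552 CPM with PFHxA, 0.0405 with PFBA and 0.0672 in control. The epithelial markers summed to 201 to 230.2 CPM in PFHxA libraries, 202 to 216 CPM in PFBA libraries and 211 to 228 CPM in controls. Mesenchymal markers summed to 775 to 818 CPM with PFHxA, 760.1 to 1004 CPM with PFBA and 733 to 991 CPM in control, most of it from VIM, the filament protein vimentin, at 649 ± 15.4, 693 ± 111 and 688 ± 117 CPM (SD, n = 4 each). Of this list 7 of 12 had at least 1 CPM. CDH2, COL1A2, COL3A1, DCN and LUM averaged at most 0.0852 CPM in any group. Markers of immune cells summed to 1.31 to 3.03 CPM over all libraries, with FCGR3A and MS4A1 among the markers at 0. Of the secretory cell markers, SCGB1A1 and SCGB3A1 were at 0 in every library. The levels below come from RNA of whole cultures, in which fewer cells of a type and less RNA per cell cannot be told apart.

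RPMI2650 expressed a small number of keratins at high level. Of the 55 keratins, 24 had enough counts to be tested (16554 of all genes did), 16 of them of type II and 8 of type I. Levels of different genes are compared as CPM per kilobase of the longest transcript, and 14 keratins had a mean above 1 on this scale. The 6 highest held 95.8% of all keratin counts. KRT5, the type II keratin of basal cells, led with a mean of 761 CPM per kilobase over the 12 libraries, and KRT7, a type II keratin of simple epithelia, followed at 754. They ranked 57 and 60 among all tested genes. The leading type I keratins were KRT19 at 254 CPM per kilobase, a chain of simple epithelia that is the smallest keratin, and KRT17 at 175, a keratin of stressed epithelium and skin appendages. KRT8 and KRT18, the original pair of simple epithelia, had 112 and 52.5 CPM per kilobase.

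KRT5 had 808 ± 31.5 CPM per kilobase with PFHxA, 716 ± 17.4 with PFBA and 759 ± 17.3 in control (SD, n = 4 each). KRT7 had 801 ± 20.3 with PFHxA, 709 ± 26.9 with PFBA and 751 ± 30.9 in control. The ranges of KRT5 and KRT7 overlapped, and KRT5 was the higher in 7 of 12 libraries, so that they were not told apart on this scale. From KRT7 down through KRT19, KRT17, KRT8, KRT18, KRT80, KRT81 and KRT75, each gene was above the next in 12 of 12 libraries with no overlap. In all, 12 of the 23 neighbouring pairs of the order overlapped, among them KRT75 and KRT10, which stood in this order in 6 of 12 libraries, and every pair from KRT4 down.

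Length matters here because several of these genes have many isoforms. KRT8 has 6881 nt in the union of its exons and 2862 nt in its longest transcript, and KRT5 has 4292 and 2531 nt. Per kilobase of the union of exons, a scale added after the data were seen, KRT5 averaged 449 CPM and KRT7 averaged 323 CPM, and KRT5 was above KRT7 in 12 of 12 libraries without overlap. The first 12 genes and their order were the same on both scales.

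**Figure D1:**
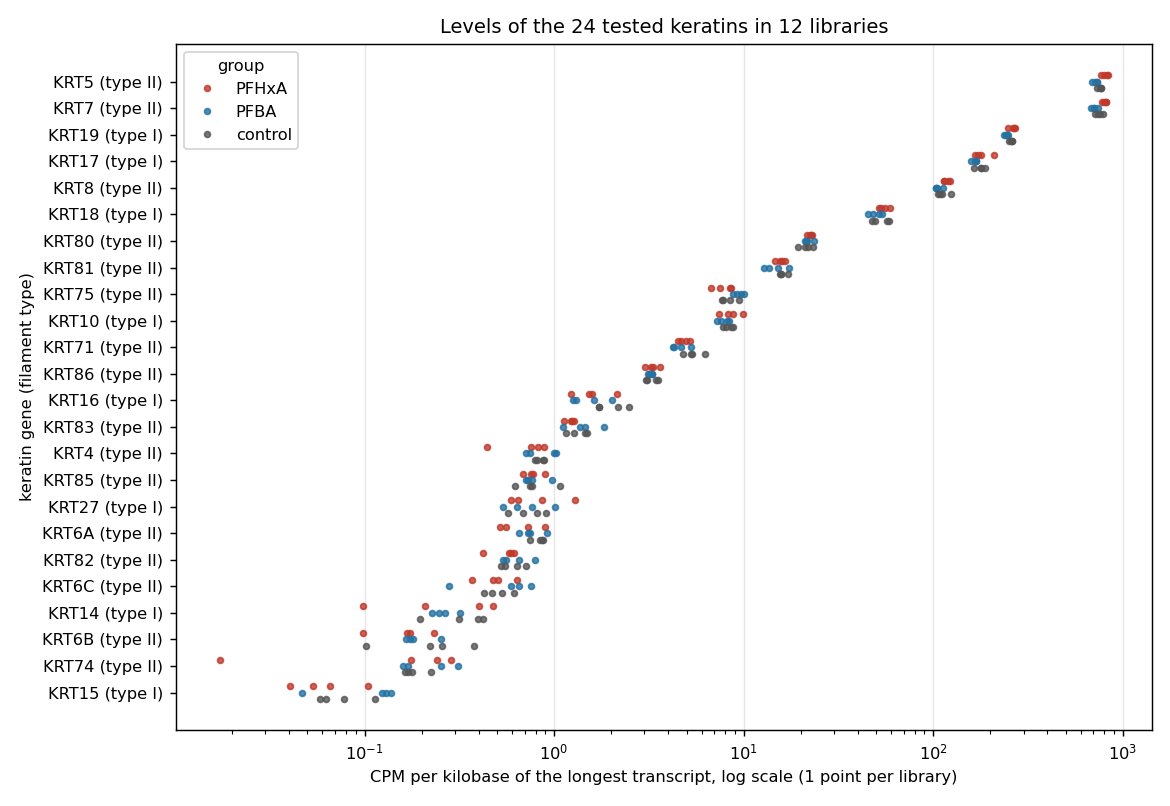
CPM per kilobase of the longest transcript (log scale, 1 point per library) of the 24 tested keratins, with PFHxA in red, PFBA in blue and control in grey within each row. KRT5 and KRT7 stand at 680 to 838 and overlap each other, the genes from KRT19 to KRT81 do not overlap their neighbours, and the groups of most genes lie on top of each other.

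KRT5 was expressed almost without its usual partner. KRT14, the type I chain that pairs with KRT5 in basal cells, averaged 0.298 CPM per kilobase, with 37 counts over the 4 PFHxA libraries, 36 over the PFBA libraries and 42 over the control libraries, against 154394, 147690 and 147789 counts for KRT5. Per kilobase the mean of KRT5 was 2553-fold that of KRT14. KRT15, the other type I keratin of basal cells, averaged 0.0846 CPM per kilobase, with 4 to 15 counts per library. The type I chains present in quantity were KRT19, KRT17 and KRT18, the only 3 type I keratins above 10 CPM per kilobase, beside 5 of type II (KRT5, KRT7, KRT8, KRT80 and KRT81).

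Summed over all members, type II keratins exceeded type I keratins in every library. The type II sum was 1787 ± 49.6 CPM per kilobase with PFHxA, 1592 ± 47.9 with PFBA and 1684 ± 31.95 in control, and the type I sum was 511 ± 15.4 with PFHxA, 469 ± 3.71 with PFBA and 499 ± 12.4 in control (SD, n = 4 each). The ratio of type II to type I was 3.50 ± 0.176 with PFHxA, 3.39 ± 0.0948 with PFBA and 3.37 ± 0.0727 in control, with overlapping libraries. KRT5 and KRT7 together made up 70.0 ± 0.939% of the summed keratin level with PFHxA, 69.1 ± 0.491% with PFBA and 69.2 ± 0.636% in control. The ratio of KRT5 to KRT7 in CPM was 1.46 ± 0.0479 with PFHxA, 1.46 ± 0.0354 with PFBA and 1.46 ± 0.0757 in control, so that the proportion of these keratins to each other differed between groups by less than the spread of the libraries.

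**Figure D2:**
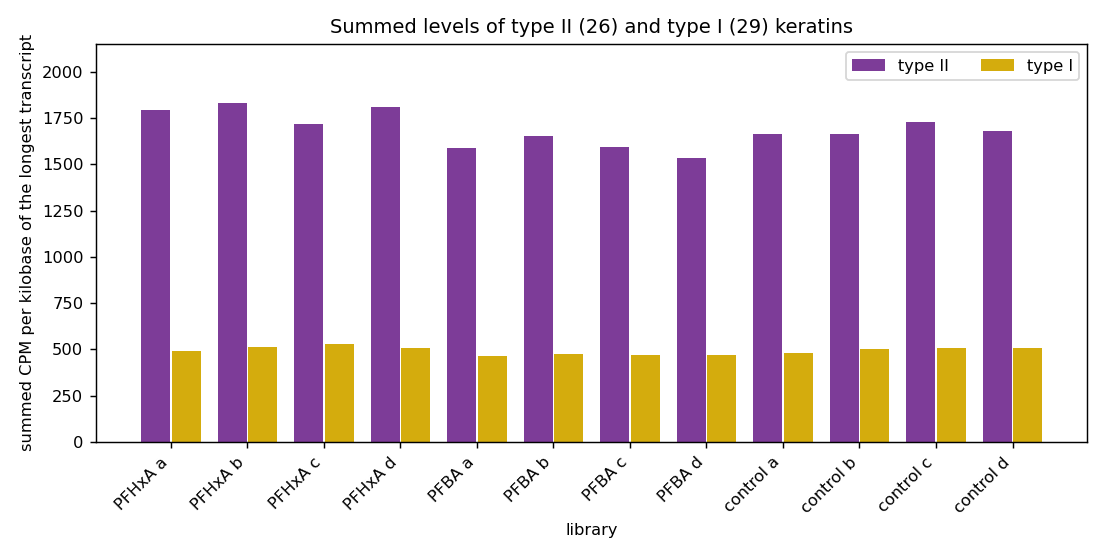
Summed CPM per kilobase of the longest transcript for the 26 type II keratins (purple) and the 29 type I keratins (yellow) in each of the 12 libraries. Type II sums lie between 1534 and 1832 and type I sums between 464 and 529.

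The start region of KRT5 on GRCh38.p14 (RefSeq), 250 bases before to 50 bases after its RefSeq start, is shown beside that of KRT75, since KRT5 was called higher and KRT75 had the lowest fitted value of the 12 most abundant keratins in the same comparison, as described below, and both lie in the type II cluster. KRT75 is known from the companion layer of the hair follicle. The KRT5 window is chr12:52520345-52520644 and the KRT75 window chr12:52434322-52434621, both on the minus strand. Capitals mark the letters ATAAAA, which begin 29 bases before the start in KRT5 and 31 bases before it in KRT75.
KRT5: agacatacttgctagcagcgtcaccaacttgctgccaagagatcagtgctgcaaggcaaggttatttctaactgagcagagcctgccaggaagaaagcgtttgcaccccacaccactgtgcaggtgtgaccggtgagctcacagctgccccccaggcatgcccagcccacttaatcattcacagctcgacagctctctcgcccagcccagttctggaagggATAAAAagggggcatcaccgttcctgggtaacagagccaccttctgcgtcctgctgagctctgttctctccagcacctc
KRT75: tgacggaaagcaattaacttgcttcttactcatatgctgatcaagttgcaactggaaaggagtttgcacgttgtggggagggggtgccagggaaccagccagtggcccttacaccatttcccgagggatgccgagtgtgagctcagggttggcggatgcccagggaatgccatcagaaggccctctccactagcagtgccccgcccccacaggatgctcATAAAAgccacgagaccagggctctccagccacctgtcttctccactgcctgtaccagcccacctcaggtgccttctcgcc

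Searched on both strands, ATAAAA occurred in 23 of the 38 start windows of keratin genes (34 genes had at least 1 window), which is 60.5%, and in 16.0% of all 35116 windows. The letters TATAAA occurred in 21 of 38 keratin windows (55.3%) and in 11.5% of all windows, and GGGCGG in 6 of 38 (15.8%) and 45% of all. Most of these windows belong to keratins with too few counts to be tested. Among the 11 windows of tested keratins, 6 held ATAAAA, 4 held TATAAA and 2 held GGGCGG. The A-rich words TATAAA and ATAAAA can overlap by 5 letters. TGANTCA was in 0 of 38 keratin windows and in 7.71% of all, and GCCNNNGGC was in 5 of 38 (13.2%) and in 23.2%. These are matches of letters only, and keratin genes arose by duplication, so that their windows are not independent. Of the tested keratins, 10 had a window and 14 had none, which were KRT7, KRT14, KRT15, KRT16, KRT17, KRT18, KRT19, KRT6A, KRT6B, KRT6C, KRT80, KRT81, KRT83 and KRT86.

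PFHxA against PFBA, given at the same dose and for the same time, was the only one of the 3 comparisons in which keratins passed the test. KRT5 and KRT7 were higher with PFHxA, each by 1.13-fold, and no keratin was called lower. That is 2 of 24 tested keratins, or 8.33%, and 10.9% of all 16554 tested genes were called in this comparison, so that the share of keratins was near the background. Counting only genes that were higher, the background was 3.84%, and 7.07% of all genes were lower. At an unadjusted p under 0.05 there were 5 keratins, beside 26.6% of all genes. KRT5 had 2020.1, 2120.1, 1946 and 2099 CPM in the PFHxA libraries a to d, against 1811, 1843, 1844 and 1749.7 CPM in the PFBA libraries. Each PFHxA library was above each PFBA library. The means were 2046 ± 79.8 and 1812 ± 44.1 CPM (SD, n = 4 each), a log2 fold change of 0.18 (SE 0.0385, interval 0.09 to 0.26, adjusted p = 0.0117 by edgeR's quasi-likelihood test).

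KRT7 had 1441, 1425, 1359.6 and 1395 CPM with PFHxA, against 1246, 1306, 1232 and 1192 CPM with PFBA, again with no overlap. The means were 1405 ± 35.7 and 1244 ± 47.2 CPM (SD, n = 4 each), a log2 fold change of 0.18 (SE 0.0414, interval 0.09 to 0.27, edgeR adjusted p = 0.0163). Leaving out PFBA c gave KRT7 an adjusted p of 0.0505 and leaving out PFBA d gave 0.0522, past the threshold of 0.05, and KRT5 stayed called without any 1 library.

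Both genes are rich in G and C, with 56.8% GC in the longest transcript of KRT5 and 62.9% in that of KRT7, and the libraries differed by GC content. The slope of a library's log2 level over GC content, per 10 percentage points of GC and relative to the mean of all libraries, was 0.0706 to 0.104 with PFHxA, -0.0650 to 0.00417 with PFBA and -0.0661 to -0.0132 in control. The median log2 fold change over all tested genes was 0.12 among genes of 55 to 60% GC and 0.13 among those of 60 to 65% GC. After removal of the GC and length trend of every library, KRT5 had 0.09 (adjusted p = 0.281) and KRT7 0.08 (adjusted p = 0.283), and 0 of 24 keratins were called. Over all alternatives the adjusted p ran from 0.000203 to 0.281 for KRT5 and from 0.000963 to 0.283 for KRT7. The share of counts from mitochondrial genes was 11.7% to 12.9% with PFHxA and 11.1% to 11.7% with PFBA. Of the ciliated cell markers 5 of 8 reached 1 CPM and none was at 0 in every library. Their summed level was 167 to 189 CPM with PFHxA and 143 to 161 CPM with PFBA, without overlap. Most of it was TUBA1A, a tubulin gene, at 156 ± 10.3 and 128 ± 10.6 CPM. FOXJ1 had 8.35 ± 0.678 and 7.80 ± 1.04 CPM, and PIFO 7.33 ± 0.566 and 7.70 ± 1.29 CPM. Of the neuronal and olfactory markers 2 of 10 reached 1 CPM and STMN2 was at 0. Their summed level was 50.4 to 64.5 CPM with PFHxA and 72.2 to 75.5 CPM with PFBA, also without overlap. TUBB3 had 32.8 ± 7.79 CPM with PFHxA and 51.5 ± 1.89 CPM with PFBA. SYP lay in the other direction, at 21.9 ± 1.33 and 19.9 ± 1.23 CPM, and none of the 3 tested was called. Of the 7 tested ciliated markers TUBA1A was called higher (log2 0.29), as was SPINT1 (0.35) of the 10 tested epithelial markers. The part of these measures in the result was not tested.

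**Figure D3:**
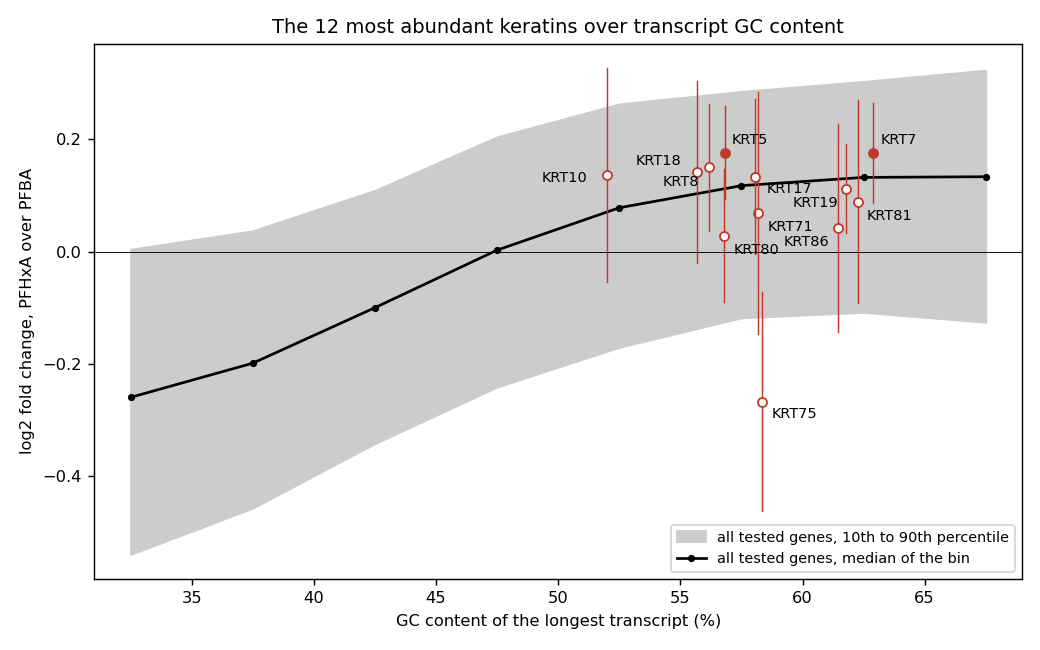
Log2 fold change of PFHxA over PFBA against the GC content of the longest transcript, for the 12 keratins with the highest mean CPM per kilobase (points with 95% intervals, filled where the adjusted p is under 0.05), over the median (line) and the 10th to 90th percentile (band) of all tested genes in bins of GC content. KRT5 and KRT7 lie 0.18 above zero, where the median of genes of like GC content is 0.12 and 0.13, and KRT75 lies at -0.27 below the band.

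The other abundant keratins had fitted values in the same direction and did not pass. KRT19 had 367, 376, 345 and 373 CPM with PFHxA, against 336, 346, 342 and 328 CPM with PFBA, where PFHxA c lay just under the highest PFBA library. Its log2 fold change was 0.11 (interval 0.03 to 0.19, edgeR adjusted p = 0.0671). KRT8 had 326, 344, 328 and 352 CPM with PFHxA, against 299, 325, 296 and 298 CPM with PFBA. The groups did not overlap, since PFBA b stayed just below the lowest PFHxA library, and the log2 fold change was 0.15 (interval 0.04 to 0.26, edgeR adjusted p = 0.0851).

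KRT17 had 305, 328, 383 and 316 CPM with PFHxA, against 291, 309, 305 and 309 CPM with PFBA. PFHxA c stood well above the rest, and the log2 fold change was 0.13 (interval -0.0046 to 0.27). KRT18 had 108, 110.5, 123 and 116 CPM with PFHxA, against 108, 94.1, 101 and 112 CPM with PFBA, with overlap and a log2 fold change of 0.14 (interval -0.02 to 0.30). The intervals of KRT17 and KRT18 include no change and reach rises of 1.21-fold and 1.23-fold.

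KRT75 had a fitted value in the other direction. It had 15.6, 19.8, 17.4 and 19.9 CPM with PFHxA, against 20.5, 21.4, 22.4 and 23.3 CPM with PFBA, and every PFHxA library was below every PFBA library. The means were 18.2 ± 2.04 and 21.9 ± 1.22 CPM (SD, n = 4 each), a log2 fold change of -0.27 (interval -0.46 to -0.07), with an edgeR adjusted p of 0.0740 that misses the threshold. Together KRT5, KRT7, KRT8 and KRT75 were the 4 of 24 keratins whose libraries did not overlap, beside 20% of all tested genes. DESeq2 called KRT19 (adjusted p = 0.0246) and KRT75 (adjusted p = 0.0433) in addition to KRT5 and KRT7, and limma-voom called KRT5 and KRT7. The adjusted p of KRT75 ran from 0.0433 to 0.180 over its alternatives and that of KRT19 from 0.0246 to 0.861.

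**Figure D4:**
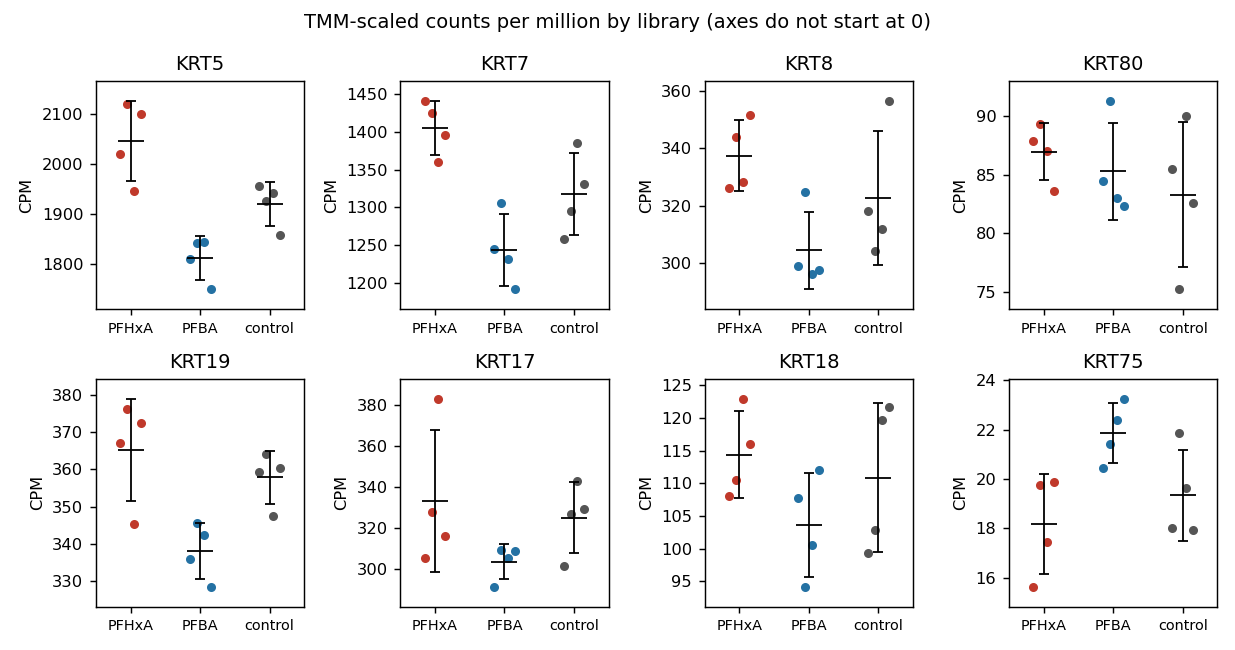
TMM-scaled CPM of 8 keratins by library (points), with the mean (long bar) and SD (whiskers) of each group of 4. The axes do not start at 0. The PFHxA and PFBA points of KRT5, KRT7, KRT8 and KRT75 do not overlap, and control points lie between or across them.

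PFHxA against control gave 0 of 24 keratins past the threshold by edgeR's quasi-likelihood test, and 14.9% of all tested genes were called. DESeq2 and limma-voom also called 0. At an unadjusted p under 0.05 there were 2 keratins, beside 28.5% of all tested genes. They were KRT5 with a log2 fold change of 0.09 (interval 0.0084 to 0.17, edgeR adjusted p = 0.135) and KRT7 with 0.09 (interval 0.0036 to 0.18, adjusted p = 0.158). KRT5 averaged 2046 ± 79.8 CPM with PFHxA and 1921 ± 43.8 CPM in control, where the libraries had 1957, 1926, 1942 and 1858 CPM. KRT7 averaged 1405 ± 35.7 CPM with PFHxA and 1318 ± 54.1 CPM in control, where the libraries had 1259, 1295, 1386 and 1331 CPM (SD, n = 4 each).

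PFHxA and control libraries overlapped for all 24 keratins, and 20.7% of all tested genes had no overlap. The 6 most abundant keratins had fitted log2 fold changes of 0.03 to 0.09, and the widest of their intervals ran from -0.12 to 0.21. The median over all tested genes was 0.09 at 55 to 60% GC and 0.10 at 60 to 65% GC, the bins that hold these keratins. Over the alternatives the lowest values were below 0 in KRT8 (-0.0035), KRT17 (-0.03), KRT18 (-0.0041) and KRT19 (-0.02). They stayed above 0 in KRT5 (0.03) and KRT7 (0.03). KRT8 and KRT18 had control values of 318, 304, 312 and 357 CPM and of 99.3, 103, 119.7 and 122 CPM, which span their PFHxA values nearly whole. KRT19 with 359, 364, 348 and 360.4 CPM and KRT17 with 302, 327, 343 and 329 CPM in control likewise overlapped PFHxA. The median log2 fold change of the 24 keratins was -0.04, beside -0.0039 over all tested genes, and values ranged from -0.48 in KRT6B to 0.17 in KRT27, both with intervals that include 0. With the GC and length trend removed, 5 of the 24 had fitted values above 0. Their median was then -0.10, beside 0.0028 over all genes.

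PFBA against control gave 0 of 24 keratins past the threshold by edgeR, and 0.00604% of all tested genes, which is 1 gene. DESeq2 and limma-voom called 0 keratins as well. At an unadjusted p under 0.05 there were 3, beside 9.86% of all tested genes, and all 3 were lower with PFBA. KRT71, a keratin of the inner root sheath of hair, had a mean of 10.5 ± 1.14 CPM in PFBA libraries and 12.3 ± 1.39 CPM in controls, with a log2 fold change of -0.23 (interval -0.44 to -0.02, edgeR adjusted p = 0.478). KRT5 had -0.08 (interval -0.17 to -0.0012, adjusted p = 0.503) and KRT19 had -0.08 (interval -0.16 to -0.0030, adjusted p = 0.493).

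KRT5 and KRT19 were the 2 of 24 keratins whose PFBA and control libraries did not overlap, beside 5.96% of all tested genes. The 6 most abundant keratins all had fitted values below 0, from -0.10 to -0.08. In PFHxA against control all had a fitted value above 0, though not under every alternative, as given above. Since both comparisons share the 4 control libraries, and PFHxA against PFBA shares the treated ones, these values are not independent of each other. The highest fitted value was 0.50 in KRT15, at 0.575 ± 0.221 CPM in PFBA libraries and 0.408 ± 0.131 CPM in controls, with an interval from -0.32 to 1.33.

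**Figure D5:**
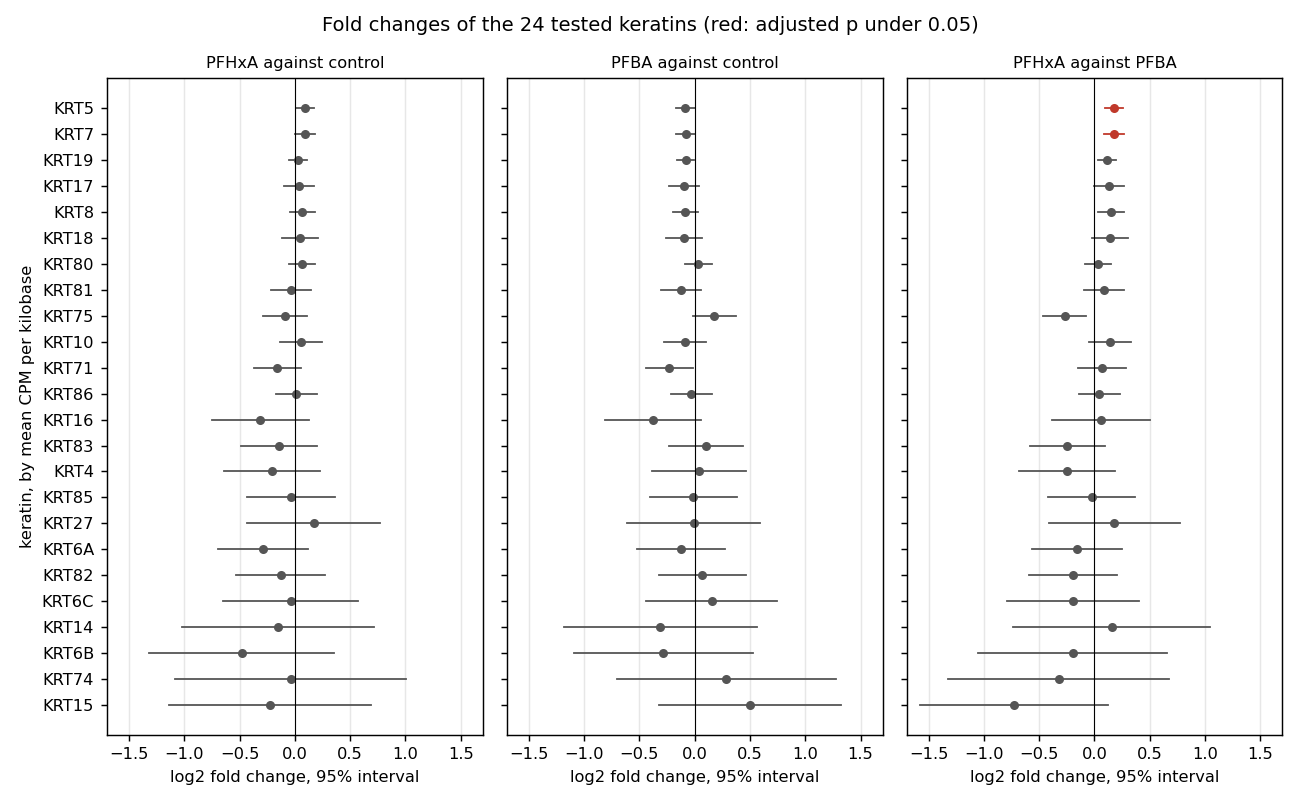
Log2 fold changes (points) with 95% intervals (bars) of the 24 tested keratins in the 3 comparisons, ordered by mean CPM per kilobase. KRT5 and KRT7 in PFHxA against PFBA, at 0.18 each, are the called values (red), and intervals widen from KRT16 down, where levels are under 2 CPM per kilobase.

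The remaining tested keratins were led by KRT80, a type II keratin, at 87.0 ± 2.40 CPM with PFHxA, 85.3 ± 4.10 CPM with PFBA and 83.3 ± 6.18 CPM in control. Of the hair shaft keratins, 5 of 17 were tested (KRT81, KRT82, KRT83, KRT85 and KRT86), and KRT81 had 30.2 ± 1.57 CPM with PFHxA, 28.4 ± 3.84 CPM with PFBA and 31.03 ± 1.39 CPM in control. Of the hair follicle sheath keratins, 4 of 9 were tested (KRT27, KRT71, KRT74 and KRT75), with KRT75 highest at a mean of 8.52 CPM per kilobase. KRT10, the type I chain of suprabasal epidermis, was the only one tested of its class of 5 and had 18.3 ± 2.22 CPM with PFHxA, 16.7 ± 1.12 CPM with PFBA and 17.7 ± 1.02 CPM in control. KRT4, the type II chain of mucosal epithelia, was the only one tested of 6 mucosal and corneal keratins, at a mean of 0.813 CPM per kilobase. The stress and appendage keratins were all tested, but beside KRT17 they were low. KRT16 had 2.68 ± 0.632 CPM with PFHxA, 2.55 ± 0.576 CPM with PFBA and 3.34 ± 0.610 CPM in control, and KRT6A, KRT6B and KRT6C were lower still (SD, n = 4 each). None of these passed the test in any of the 3 comparisons by edgeR, though KRT75 did by DESeq2 as given above.

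The 31 keratins that were not tested differed by type. All 10 of type II had some counts, with totals of 10 to 79 over the 12 libraries and reads in at least 7 libraries each. Of the 21 of type I, 12 had no count in any library and the others had totals of at most 9. Together the untested members held 0.0483% of the keratin counts. Those that reached 10 counts in some library were KRT77 (highest 14), KRT79 (highest 13) and KRT72 (highest 11). Chosen after their values were seen, KRT20, a keratin of intestine and urothelium, had 0 counts, which allows up to 0.0128 CPM over all libraries (3 counts, counting error only), and KRT13, the type I partner of KRT4 in mucosa, had 4 counts in all.

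The type II genes and KRT18 lie together on chromosome 12 (GRCh38), 27 genes between 52168996 and 52952901, and the other 28 type I genes on chromosome 17 between 40654665 and 41624842. KRT5 is at chr12:52514575-52520687, KRT7 at chr12:52232520-52252186, KRT8 at chr12:52897187-52949954 and KRT18 at chr12:52948871-52952901. KRT19 is at chr17:41523617-41528308 and KRT17 at chr17:41619437-41624842. KRT8 and KRT18 overlap on opposite strands, KRT7 overlaps its antisense gene KRT7-AS, and KRT81 lies within the span of KRT86 on the other strand. KRT75 overlaps the gene AC055736.1 on the other strand. KRT7 also overlaps the span of KRT86 on the same strand. The strand setting of the counts is not given in the sources used here, so that reads of these overlaps may be shared between genes. For KRT7 and KRT86 a strand setting could not part such reads.

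Several keratins are near-identical copies whose reads could be split. Of the stretches of 100 nt in the longest transcript, 30.3% of those of KRT81 and 28.0% of those of KRT86 also occur in another gene, as do 31.7% for KRT6C, 24.6% for KRT6B and 18.2% for KRT6A, against 1.4% for KRT5, 7.7% for KRT7 (with KRT7-AS) and 0 for KRT19. For KRT18 the share was 12.2%, with KRT8, and for KRT75 it was 5.7%, with AC055736.1. The coding sequences of KRT81 and KRT86 are identical over a run of 605 nt that begins at position 61 of each. The first differences after that run are shown because only such bases let a read tell KRT81 from KRT86. Both stretches are coding positions 636 to 695 on chromosome 12 in GENCODE 29, with capitals at the 2 bases that differ.
KRT81: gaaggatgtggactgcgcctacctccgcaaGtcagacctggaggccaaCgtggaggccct
KRT86: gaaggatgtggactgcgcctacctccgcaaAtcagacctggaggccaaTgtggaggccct
The levels of KRT81 and KRT86, and those of KRT6A, KRT6B and KRT6C, whose coding sequences are 97.5% to 98.5% identical, are therefore uncertain. Pseudogene rows of KRT16 held 26.4% of the counts of KRT16 and its pseudogenes together, and those of KRT8 held 6.04%. For KRT18, KRT17 and KRT19 this share was 1.57%, 0.578% and 0.0194%. Whether reads of the genes fell on these rows was not tested. KRT5, KRT7 and KRT19 share little sequence with other genes.

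Calls among genes that work with keratins were mostly higher with PFHxA. Nearly all, including every higher call, were lost once the GC and length trend was removed. These lists, like the members, were drawn up with results of these data known. With PFHxA against control, 9 were called higher and 1 lower of 74 tested in 5 lists, beside 6.08% higher and 8.82% lower among all tested genes. Desmosome and hemidesmosome genes, whose proteins anchor keratin filaments to the cell membrane, had 4 of 15 higher and none lower. PLEC (plectin, a linker of filaments) averaged 571 ± 19.9 CPM with PFHxA and 446 ± 35.5 CPM in control (log2 0.36), JUP (plakoglobin) 506 ± 9.91 and 446 ± 10.3 CPM (0.18), COL17A1 (a hemidesmosome collagen) 1167 ± 12.7 and 1056 ± 51.1 CPM (0.14) and DSP (desmoplakin) 271 ± 7.78 and 245 ± 13.9 CPM (0.14), with edgeR adjusted p from 0.00204 to 0.0396. In the same comparison 1 of 10 tested epithelial markers was called, EPCAM, lower at 38.3 ± 0.739 CPM with PFHxA and 43.3 ± 1.98 CPM in control (edgeR adjusted p = 0.0384). Of 7 tested mesenchymal markers 1 was called, FN1 (fibronectin), higher at 64.8 ± 4.06 CPM with PFHxA and 52.4 ± 3.70 CPM in control (edgeR adjusted p = 0.00554). Secretory cell markers summed to 10.8 to 11.9 CPM with PFHxA and 9.75 to 10.5 CPM in control, without overlap. Of these, SPDEF had 6.94 ± 0.328 CPM with PFHxA and 5.74 ± 0.705 CPM in control. MUC5B had 2.29 and 2.31 CPM, MUC5AC 1.28 and 1.24 CPM and BPIFB1 1.01 and 0.783 CPM, and none of the 4 tested was called. The part of these markers in the result was not tested.

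Of the regulators of keratin and epithelial genes, 4 of 26 were higher with PFHxA than in control, the transcription factors CEBPB (log2 0.20), RARA (0.27), FOSL1 (0.41) and JUNB (0.17). Among the other intermediate filament genes 1 of 10 was higher, SYNM, which codes for synemin (0.19). None of 4 cornified envelope genes was called. After removal of the GC and length trend, these lists held 1 call, which was lower with PFHxA. Leaving out PFHxA b gave 5 calls, and leaving out PFHxA c, PFHxA d or control d gave 4.

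PFHxA against PFBA gave 6 higher and 1 lower in the same lists, beside 3.84% higher and 7.07% lower among all tested genes. JUP averaged 506 ± 9.91 CPM with PFHxA and 434 ± 21.5 CPM with PFBA (log2 0.22), PLEC 571 ± 19.9 and 478 ± 25.0 CPM (0.26), and LMNB2, a nuclear lamin, 401 ± 6.72 and 357 ± 18.7 CPM (0.17). FAM83H, a keratin-binding protein, averaged 125 ± 6.33 and 102 ± 4.43 CPM (0.29), and the kinase gene PRKCD (0.21) and JUNB (0.20) were also higher. The count was 0 with the GC and length trend removed and 4 without PFHxA b, PFHxA d, PFBA a, PFBA c or PFBA d. With PFBA against control no gene of the 5 lists was called by edgeR, DESeq2 or limma-voom.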

How the data were processed

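The authors' deposited table gives a raw count of reads for each gene in 12 libraries. Per the submitters' processing notes, the tool was HISAT2 2.0.4, an aligner, and the build GRCh38. Neither the counting program nor the annotation release or strand setting is stated. The group of each column was inferred from its prefix, BA for PFBA, HA for PFHxA and Ck for control, which the sample labels do not spell out. Letters a to d are those of the columns. Another 12 columns, of length-scaled values, were not used, so that 1 measure was kept per column, and levels were computed as TMM-scaled counts per kilobase of the longest transcript, a change from the plan.

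Counts were tested with edgeR 4.0.16 in R 4.3.3: filterByExpr (minimum count 10, total 15), TMM scaling, 1 robust quasi-likelihood fit of all 12 libraries, two-sided F tests of 3 pairs of groups, p adjusted by Benjamini-Hochberg over the 16554 genes tested, threshold 0.05. Intervals are at 95%. The fit was tested on simulated data. GC content and length came from the longest transcript in GENCODE 29 (50076 identifiers of the table matched), and start windows from RefSeq. The coding sequence of a gene was its longest in GENCODE 29 that begins with ATG. Named were all tested keratins and, per partner list, up to 4 called genes with the smallest p. Some listed genes are counted but not reported here by name. Members and lists were chosen with earlier results of these data known.

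Alternatives: scaling by RLE or upper quartile, no or a stricter filter, only the 8 libraries compared, limma-voom (limma 3.58.1), DESeq2 1.42.0, GC and length trends removed, a block for the column letter, each library left out, and, chosen after seeing the data, the union of exons as length.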

Additional observations from a re-analysis of the deposited data

Results flagged for a closer look

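Within a group of 4, a single library stood apart from the other 3 in 4 of 72 checks of tested keratins, and chance alone flags about 1 in 20 such groups. KRT8 had 325 CPM in PFBA b, against 296 to 299 CPM in the other PFBA libraries. KRT81 had 33.1 CPM in control d, against 30.1 to 30.5 CPM in the other controls. KRT6B had 0.578 CPM in PFBA c, against 0.378 to 0.410 CPM, and KRT15 had 0.246 CPM in PFBA d, against 0.647 to 0.722 CPM, both at levels of a few counts per library. Without PFBA b, KRT8 passed the threshold in PFHxA against PFBA (log2 0.18, edgeR adjusted p = 0.0487), and its adjusted p over all alternatives ran from 0.0277 to 0.630. Over all tested genes control d stood apart. The chi-square per degree of freedom between 2 libraries of a group was 16.0 to 20.9 with control d and 9.60 to 13.7 in other pairs. Its mitochondrial share was 9.15%, the lowest. The slope of log2 level over log2 transcript length was 0.0138 to 0.0251 with PFHxA and -0.0632 (control d) to -0.00899 in control.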

How the results depend on the processing

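Of 1446 alternative values of the 72 keratin fold changes, 1437 kept their direction and side of the threshold or were called in neither fit, 4 lost a call, 5 gained one and none of the called reversed. Among those called in neither fit, 56 had the other sign. Keratins called in PFHxA against control and in PFBA against control were 0 under each alternative. In PFHxA against PFBA they were 2 under each but DESeq2 (4), the removal of GC and length trends (0) and leaving out libraries (1 to 3, with KRT19 called without PFHxA c and KRT8 without PFBA b or control d). With the GC and length trends removed, calls over all genes were 457 in place of 2466 in PFHxA against control and 144 in place of 1806 in PFHxA against PFBA, and partner genes 1 in place of 10 and 0 in place of 7.

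For PFBA against control, calls over all genes were 1, and 2 with no filter, 2 in the 8 libraries compared, 0 by limma-voom, 44 by DESeq2 and 0 with the replicate block. Leaving out 1 library gave 1523 to 2396, 0 to 4 and 1035 to 2187 calls over all genes for PFHxA against control, PFBA against control and PFHxA against PFBA. The lowest of PFHxA against control and of PFHxA against PFBA came without PFHxA b, and counts for PFHxA against PFBA were 1179, 1151, 1143 and 1108 without PFHxA c, PFBA a, PFBA c and PFBA d. Partner genes numbered 4 to 11, 0 and 4 to 10, and the ratio of type II to type I means ran from 3.46 to 3.59 with PFHxA, 3.36 to 3.44 with PFBA and 3.34 to 3.39 in control. Per kilobase of the union of exons, chosen after seeing the data, KRT5 and KRT7 made up 66.4% with PFHxA, 65.3% with PFBA and 65.4% in control, and the ratio of type II to type I was 3.00, 2.92 and 2.89. The causes of these differences were not tested.

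The columns carry letters that the labels do not tie to replicate numbers. Deviations of libraries with the same letter correlated at -0.0896 to 0.0625, with 0 of 12 pairs above 0.1, and 3 of 12 libraries correlated best with their own letter, so the letters were not taken to pair the libraries. With a replicate block for the letter, keratins called were 0, 0 and 2, and all genes called 2441, 0 and 1838. Depth limits the low members: KRT14, KRT15 and KRT74 rest on few counts per library, and the intervals of their fold changes ran from 0.335 to 2.51 over the 3 comparisons.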
